A study of Mus musculus with 18 samples.

Results

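Tendon fibroblasts (TFs) labelled as Hif1a knockout were grown for 4 days in low oxygen or in room-air oxygen, and the response of their transcripts to oxygen is described here. The cells were taken from the tail tendons of mice of both sexes, 4 to 6 months old, with the genotype Hif1a flox/flox;ScxCre on a mixed C57BL6J/129S1 background, named cKO below. The 3 hypoxic libraries (1% O2) and 3 normoxic libraries (20% O2) carry cKO titles, and these 6 of the 18 libraries of the series are the members. They were chosen by title alone, with no measured value. The 6 Ctrl libraries, set beside them where their response differs or is alike, come from Cre-negative mice by the study's culture methods. These cells were grown in the same 2 oxygen levels for the same time, also in triplicate. For Ctrl mice in general the methods list flox/flox without Cre and flox/WT with ScxCre, and the labels say wild-type. The remaining 6 libraries, Ctrl cells that also received Cre gesicles, enter only an alternative fit. All cells were let out of tendon through collagen gels and passaged on plastic, and the serum level is given differently in the labels and in the methods. Cre was driven by the promoter of Scx, the tendon transcription factor scleraxis, so that deletion depends on which cells had once used that promoter. The share of cultured cells that had lost the floxed exon was not analysed here.

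Cells sense oxygen through prolyl hydroxylases (the Egln genes), which use oxygen to mark the HIF alpha subunits for destruction by the VHL ubiquitin ligase. When oxygen is scarce, HIF-1 alpha (Hif1a) or HIF-2 alpha (Epas1) pairs with ARNT, binds a short core sequence in DNA and raises genes for glycolysis, lactate export, mitochondrial adaptation and vessel growth. Tendon is a sparsely vascular tissue, and its fibroblasts make the collagen and proteoglycans that carry load.

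Hif1a itself, at chr12:73901375-73947530 on the plus strand of GRCm38, was not lower in the libraries labelled cKO. It stood at 404, 298 and 435 CPM at 20% O2 and 433, 402 and 509 CPM at 1% O2 (CPM, counts relative to the TMM-scaled library total, replicates 1 to 3 in that order, as in every list of library values below). Ctrl libraries held 337, 344 and 374 CPM at 20% O2 and 496, 370.2 and 410.2 CPM at 1% O2, a range that the cKO values overlap. The counts are summed over the whole gene, floxed exon included, so they do not check the deletion, and the libraries are called cKO by their labels throughout. By quantitative PCR the study reported reduced Hif1a expression in tail TFs of cKO mice, in cultures kept longer than these. Reads on a Cre sequence were counted in 5 of the 6 cKO libraries and in none of the 6 Ctrl libraries.

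The 6 cKO libraries held 6857558 to 42964226 counts. The smallest, replicate 1 at 1% O2, held 6857558, so that 3 counts, the floor used here for a gene listed at 0, correspond to 0.437 CPM there and to 0.0698 to 0.111 CPM in the other libraries. Defining TF markers were present in all 6 libraries, with a summed level over 9 genes, led by Col1a1, of 5291 to 10083 CPM at 20% O2 and 5613 to 9340 CPM at 1% O2. The labels do not tie libraries to mice, so that p-values measure the spread between these cultures. The summed markers of 8 other cell types reached at most 76.4 CPM, for 7 endothelial genes at 20% O2 (37.7 to 76.4 CPM, against 17.0 to 40.5 CPM at 1% O2). Nearly all of that sum was Tek, at 37.5 to 76.3 CPM and 17.0 to 39.6 CPM, while the other 6 genes, Pecam1, Cdh5, Kdr, Erg, Emcn and Vwf, were each at 0 to 0.657 CPM. Adgre1, Cd3e, Myog, Pax7, Ckm, Krt14, Acan, Ibsp, Adipoq and Lep were at 0 in all 6. The highest members of the same lists were present in all 6. Lyz2 stood at 8.55 to 21.8 CPM, Acta1 at 9.299 to 19.9 CPM and Dsp at 10.5 to 21.3 CPM. Sox9 stood at 24.98 to 31.4 CPM and Pparg at 4.29 to 10.8 CPM. Smooth muscle and pericyte markers summed to 39.1 to 58.05 CPM at 20% O2 and 34.4 to 52.4 CPM at 1% O2. Schwann and nerve markers summed to 15.8 to 24.4 CPM and 13.8 to 21.8 CPM. In neither list was a gene at or under the floor in all 6. The share of counts from mitochondrial genes was highest in replicate 2 at 20% O2, at 1.02%, against 0.452% at the lowest. In bulk RNA of this kind, fewer cells with a transcript and less of it per cell cannot be told apart.

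Of 15850 genes tested in the cKO libraries, 333 (2.1%) passed an adjusted p of 0.05 and a fold change of 1.5 between oxygen levels in edgeR's quasi-likelihood test. Of these, 222 (1.4%) rose at 1% O2 and 111 (0.7%) fell. Among those that rose, 90 changed by less than 2-fold, 89 by 2- to 4-fold, 30 by 4- to 8-fold and 13 by more, and among those that fell the numbers were 50, 46, 13 and 2. Protein-coding genes made up 216 of the 222 and 104 of the 111. In all 333 the 3 hypoxic libraries lay apart from the 3 normoxic ones, which was so for 20.6% of all genes tested (10.7% higher and 9.9% lower). With the p left unadjusted, 1845 genes (11.6%) passed, 824 higher (5.2%) and 1021 lower (6.44%), and this unadjusted rule is named below where a list holds no call. DESeq2 called 892 and limma-voom with library weights 2718 of the same 15850 genes. List counts from these looser rules are to be read beside these totals. The median log2 fold change over all genes was -0.029. Each count of calls in a list below is to be read beside 2.1% of all genes called, 1.4% higher and 0.7% lower. A single call in a list describes that gene and not the list.

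**Figure D1:**
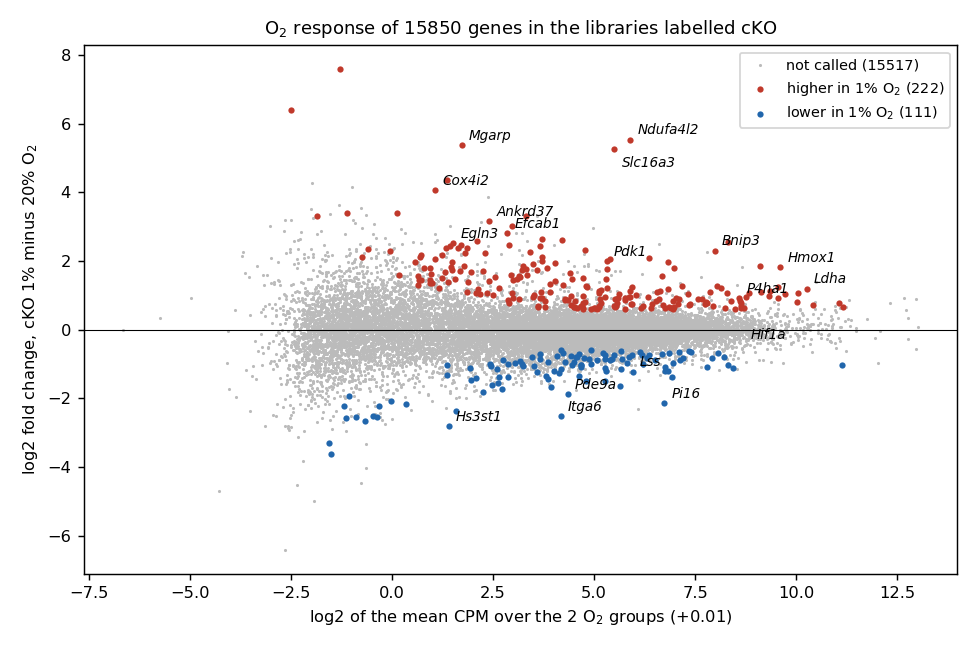
Each point is 1 of 15850 genes in the cKO libraries, by its mean level (x axis, log2 of CPM + 0.01) and its log2 fold change at 1% against 20% O2 (y axis). The 222 genes that rose are coloured above 0 and the 111 that fell below it, and the 15517 not called lie in grey around 0; the points with the highest fold are low in level.

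A single library had a large part in these counts. Replicate 2 at 20% O2 stood apart from the other normoxic libraries, and without it 1373 genes were called (573 higher and 800 lower). Leaving out any of the other 5 gave 98 (without replicate 3 at 20% O2) to 194 (without replicate 3 at 1% O2) calls, with 113, 143 and 170 without replicate 2 at 1% O2, replicate 1 at 20% O2 and the shallow replicate 1 at 1% O2. Of the 333 genes, 82 (68 higher and 14 lower) were called in every one of these 6 fits, and each of the 333 kept its sign. Thinning every library to the smallest total gave 283 calls, 170 higher and 113 lower.

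Promoters of 4 called hypoxia response genes are shown first. They are the named ones with the highest fold change whose promoter holds ACGTG or GCGTG, the core letters read by HIF. A match in each was therefore set by the choice. Where a gene has several RefSeq starts, the start with the most matches is shown, so the numbers of matches are maxima. The sequences are the 250 bases before the RefSeq start of the gene in GRCm38.p6, on the gene's own strand, here minus for all 4, and capitals mark ACGTG or GCGTG on either strand (CACGT and CACGC when on the other strand, with overlapping matches merged).
Mgarp, chr3:51396548-51396797: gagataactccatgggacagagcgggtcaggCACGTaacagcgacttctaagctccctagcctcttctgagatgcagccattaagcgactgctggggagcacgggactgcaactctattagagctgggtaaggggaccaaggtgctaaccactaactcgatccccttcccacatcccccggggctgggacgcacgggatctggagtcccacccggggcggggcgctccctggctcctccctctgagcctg
Ankrd37, chr8:45999851-46000100: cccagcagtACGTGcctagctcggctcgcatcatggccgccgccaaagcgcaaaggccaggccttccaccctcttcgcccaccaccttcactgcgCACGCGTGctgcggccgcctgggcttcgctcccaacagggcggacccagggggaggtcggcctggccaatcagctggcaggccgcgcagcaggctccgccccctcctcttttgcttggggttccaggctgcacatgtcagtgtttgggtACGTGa
Egln3, chr12:54203875-54204124: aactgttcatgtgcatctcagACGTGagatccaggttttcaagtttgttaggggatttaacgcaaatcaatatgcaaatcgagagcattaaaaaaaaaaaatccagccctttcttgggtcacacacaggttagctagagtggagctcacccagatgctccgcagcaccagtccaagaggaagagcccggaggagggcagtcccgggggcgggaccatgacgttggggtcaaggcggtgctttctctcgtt
Bnip3, chr7:138909507-138909756: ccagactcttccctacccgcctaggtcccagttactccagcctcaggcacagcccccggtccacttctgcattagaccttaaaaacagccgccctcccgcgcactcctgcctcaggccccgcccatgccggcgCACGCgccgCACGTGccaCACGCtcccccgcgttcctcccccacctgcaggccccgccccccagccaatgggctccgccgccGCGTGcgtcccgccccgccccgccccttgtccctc
The letters were read once in the promoters of Mgarp, 219 bases before the start, and Egln3, 229 bases before it. Ankrd37 held 4 matches, the nearest 6 bases from the start, and Bnip3 held 5, of which 2 are the same CACGTG read on both strands. Of all 32851 promoters in the table, 12679 (38.6%) hold at least 1 match in this window, and counted by gene the share is 60.5% of the genes tested that have a promoter there (a gene may have several), so that a match alone says little. A match describes the sequence, and binding was not measured in these libraries.

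Hypoxia response genes gave more calls than any other list that rose, and none fell: 14 of the 35 tested were called, all higher, beside 1.4% of all genes. Their median log2 fold change was 0.63. The mitochondrial protein gene Mgarp, which affects how mitochondria move along the cytoskeleton, stood at 0.215, 0.206 and 0.0457 CPM at 20% O2 and 9.08, 3.29 and 7.03 CPM at 1% O2 (log2 fold change 5.38 ± 0.54 SE, adjusted p = 0.000436). Ankrd37, an ankyrin repeat gene widely used as a hypoxia marker, was measured at 1.29, 1.26 and 0.594 CPM at 20% O2 and 13.5, 7.53 and 7.46 CPM at 1% O2 (log2 fold change 3.16 ± 0.44 SE, adjusted p = 0.00316). In both genes the lowest hypoxic library stood far above the highest normoxic one, though Mgarp at 20% O2 rests on few reads. Bnip3, which tags mitochondria for autophagy, had 74.6, 109.8 and 72.6 CPM at 20% O2 and 558, 361 and 345 CPM at 1% O2 (log2 fold change 2.29 ± 0.21 SE, adjusted p = 0.000245). All 3 hypoxic Bnip3 values exceeded all normoxic ones, with replicate 1 the highest. Adm, the gene of the vasodilator peptide adrenomedullin, was at 411, 541 and 387 CPM at 20% O2 and 1131, 1121 and 937 CPM at 1% O2 (log2 fold change 1.25 ± 0.19 SE, adjusted p = 0.00735), its groups far apart.

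Other members of the hypoxia list that rose were Fam162a (log2 fold change 1.80), Higd1a (1.10), Ier3 (0.92) and Mxi1 (0.79), along with genes described below by their role. Members that did not pass included Vegfa, the main vascular growth factor, at 70.7, 51.5 and 58.1 CPM at 20% O2 and 83.5, 93.3 and 83.1 CPM at 1% O2 (adjusted p = 0.225), its groups just apart, and Hilpda, a lipid droplet protein, at 11.5, 17.996 and 12.95 CPM at 20% O2 and 21.9, 20.5 and 16.7 CPM at 1% O2 (adjusted p = 0.202). For Hilpda the lowest hypoxic library, replicate 3, lay below the highest normoxic one, replicate 2, and without replicate 2 at 20% O2 its adjusted p was 0.0256 at a log2 fold change of 0.69. Car9, the hypoxia-linked carbonic anhydrase, was near the limit of detection at 0.179, 0.696 and 0.708 CPM at 20% O2 and 0.577, 1.37 and 1.82 CPM at 1% O2. Leaving out 1 library gave 10 to 16 calls in the list. Among the 14 called genes, 13 have a promoter in the table and all 13 hold ACGTG or GCGTG, which 25 of the 27 list members with a promoter do (92.6%), whether called or not. Over all genes tested that have a promoter there, the share was 60.5% (6696 of 11074), and it was 64.2% for the genes called higher and 65.3% for those called lower. Ndufa4l2 has none there.

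**Figure D2:**
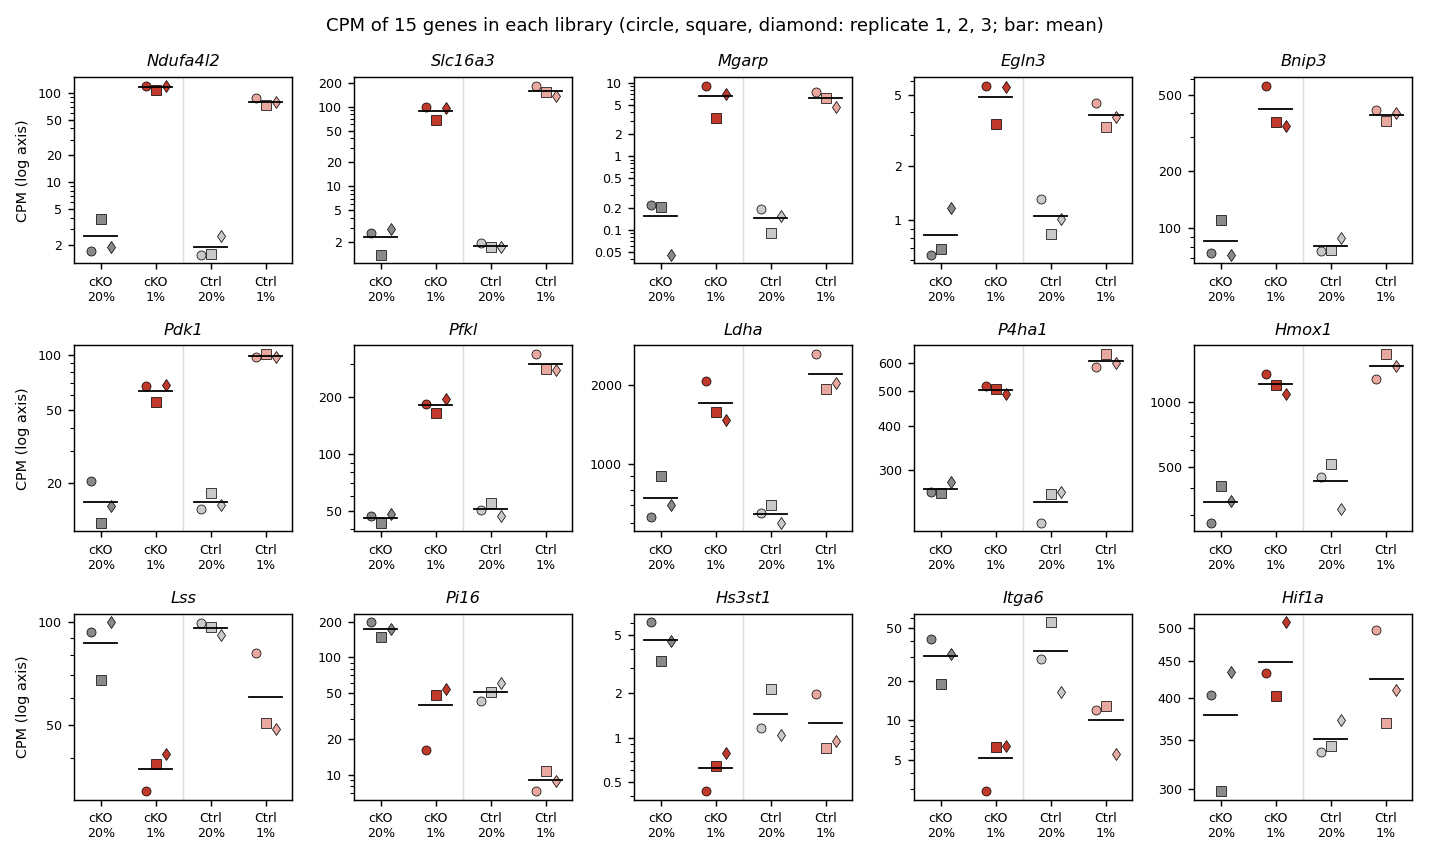
Levels of 15 genes in each library (CPM, log axis) for cKO at 20% and 1% O2 and Ctrl at 20% and 1% O2, where circle, square and diamond are replicates 1, 2 and 3 and the bar is the group mean. Ndufa4l2 moves from 1.72 to 3.87 CPM at 20% O2 to 109 to 121 CPM at 1% O2 in the cKO libraries, and the Ctrl libraries lie on the same 2 levels, while the 2 oxygen levels of Hs3st1 lie apart in cKO and overlap in Ctrl.

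Of the oxygen-sensing machinery, the prolyl hydroxylase genes Egln3 and Egln1 rose, and Egln2 and the HIF subunits did not pass the test. Egln3 had 0.644, 0.696 and 1.16 CPM at 20% O2 and 5.62, 3.43 and 5.54 CPM at 1% O2 (log2 fold change 2.51 ± 0.33 SE, adjusted p = 0.00226), and all hypoxic values were above all normoxic ones. Egln1, the main HIF prolyl hydroxylase, rose less, with 61.9, 48.7 and 59.3 CPM at 20% O2 and 98.2, 86.97 and 91.7 CPM at 1% O2 (log2 fold change 0.70 ± 0.12 SE, adjusted p = 0.0103). The third hydroxylase, Egln2, was at 54.9, 53.5 and 55.8 CPM at 20% O2 and 38.2, 58.996 and 63.1 CPM at 1% O2 (adjusted p = 0.945), with 1 hypoxic library below and 2 above the normoxic range. Epas1, encoding HIF-2 alpha, stood at 7.76, 4.92 and 4.61 CPM at 20% O2 and 1.87, 3.11 and 3.59 CPM at 1% O2 (log2 fold change -0.95, adjusted p = 0.202), the hypoxic libraries being the lower without passing. In all, 2 of 9 genes of this list were called, both higher, in each of the leave-one-out fits. Without replicate 2 at 20% O2, 2 further members were called lower.

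The highest fold change among all genes named here was in the respiratory chain. Ndufa4l2, at chr10:127514967-127517154, encodes a variant of the cytochrome oxidase subunit NDUFA4 that is linked to lower respiration in hypoxia. It stood at 1.72, 3.87 and 1.87 CPM at 20% O2 and 119, 109 and 121 CPM at 1% O2 (log2 fold change 5.53 ± 0.31 SE, adjusted p = 2.92e-06). The 3 hypoxic libraries lie close together and far above the normoxic ones. Its counterpart Ndufa4 was at 76.1, 169.8 and 89.95 CPM at 20% O2 and 103, 101 and 79.6 CPM at 1% O2 (adjusted p = 0.609), so that the normoxic range, widened by replicate 2, encloses every hypoxic value. Cox4i2, the hypoxic isoform of cytochrome oxidase subunit 4, showed 0.179, 0.438 and 0.0457 CPM at 20% O2 and 6.92, 2.76 and 2.10 CPM at 1% O2 (log2 fold change 4.07 ± 0.66 SE, adjusted p = 0.0094), which is a few reads per library at 20% O2, and its log2 fold change was 5.15 without replicate 2 at 20% O2 and 3.46 without replicate 1 at 1% O2. The common isoform Cox4i1 stood at 178, 347 and 224 CPM at 20% O2 and 205, 220.1 and 200.1 CPM at 1% O2 (adjusted p = 0.47), again with the normoxic replicate 2 far above the rest. Higd1a, a respirasome assembly factor, rose with 49.2, 81.4 and 49.2 CPM at 20% O2 and 163, 120.1 and 104 CPM at 1% O2 (log2 fold change 1.10 ± 0.21 SE, adjusted p = 0.0204). It missed the threshold without replicates 1 or 2 at 1% O2 and without replicates 1 or 3 at 20% O2 (adjusted p 0.0545 to 0.0983).

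The rest of the chain gave no call. None of 57 nuclear subunit genes was called by edgeR, DESeq2 or limma-voom with library weights, and none passed an unadjusted p of 0.05 with a 1.5-fold change. Their median log2 fold change was -0.057, and it was 0.207 without replicate 2 at 20% O2, the library in which 53 of the 57 had their highest level. Of the 13 protein genes of the mitochondrial genome none was called by any of the 3 tools or by the unadjusted rule, with a median of -0.093 that became 0.309 without that library. Of the tricarboxylic acid cycle's 20 genes none was called by any of the 3 tools or by the unadjusted rule. Dlst, a subunit of the oxoglutarate dehydrogenase complex, was lower in every hypoxic library, at 130.4, 142 and 141 CPM at 20% O2 and 105, 104 and 98.5 CPM at 1% O2 (log2 fold change -0.42 ± 0.10 SE, adjusted p = 0.0453), a change under 1.5-fold.

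Glycolysis rose in part: 7 of 19 enzyme genes were called, all higher, beside 1.4% of all genes called higher. Pfkl, the liver-type phosphofructokinase, stood at 46.9, 43.1 and 48.1 CPM at 20% O2 and 183, 165 and 196 CPM at 1% O2 (log2 fold change 1.98 ± 0.12 SE, adjusted p = 5.61e-06), and its groups are tight and far apart. Aldoc, an aldolase, was low but clear at 1.18, 1.19 and 1.14 CPM at 20% O2 and 6.63, 4.19 and 7.53 CPM at 1% O2 (log2 fold change 2.38 ± 0.31 SE, adjusted p = 0.00233). Ldha, which turns pyruvate into lactate, had 634, 907 and 701 CPM at 20% O2 and 2080.1, 1576 and 1469 CPM at 1% O2 (log2 fold change 1.19 ± 0.18 SE, adjusted p = 0.00734). Every hypoxic library of these 3 genes was above every normoxic one. Aldoa (1.06), Tpi1 (1.06), Pgam1 (0.93) and Pgk1 (0.84) also rose on the log2 scale. Gapdh, at 875, 1530.00 and 1019.5 CPM at 20% O2 and 1778, 1511 and 1425 CPM at 1% O2, did not pass (adjusted p = 0.223), and the normoxic replicate 2 lay among the hypoxic values. The hexokinases did not rise: Hk2 stood at 12.1, 6.52 and 10.9 CPM at 20% O2 and 4.90, 5.64 and 7.84 CPM at 1% O2 (adjusted p = 0.197) and Hk1 had a log2 fold change of -0.16 (adjusted p = 0.605). The lactate dehydrogenase subunit Ldhb was at 21.7, 28.1 and 23.8 CPM at 20% O2 and 25.8, 20.8 and 25.6 CPM at 1% O2, with overlapping groups. The count of called enzymes was 3 without replicate 3 at 20% O2, where Aldoa (adjusted p = 0.0643) and Tpi1 (0.0601) were among those lost, and 14 without replicate 2 at 20% O2, 13 higher and 1 lower.

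Of 10 genes for glucose and lactate transport 2 were called, both higher, beside 1.4% of all genes called higher. Slc16a3, the lactate exporter MCT4, at chr11:120948480-120960868, stood at 2.58, 1.39 and 2.95 CPM at 20% O2 and 99.2, 68.4 and 97.2 CPM at 1% O2 (log2 fold change 5.26 ± 0.27 SE, adjusted p = 2.59e-06). The lowest hypoxic library exceeded the highest normoxic library many-fold. The related carrier Slc16a1 had 63.9, 41.8 and 66.7 CPM at 20% O2 and 37.8, 33.8 and 39.5 CPM at 1% O2 (adjusted p = 0.136), with all hypoxic values below the normoxic ones, and it was called lower without replicate 2 at 20% O2 (log2 fold change -0.81, adjusted p = 0.0232). Slc2a1, the basal glucose transporter GLUT1, showed 64.8, 71.96 and 67.9 CPM at 20% O2 and 133, 117 and 132 CPM at 1% O2 (log2 fold change 0.90 ± 0.17 SE, adjusted p = 0.0236). It did not pass without any library other than replicate 2 at 20% O2 (adjusted p 0.0545 to 0.0962). Slc2a3 overlapped between groups, at 5.36, 2.45 and 5.87 CPM at 20% O2 and 7.21, 4.77 and 6.42 CPM at 1% O2.

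Pdk1, a kinase that inhibits pyruvate dehydrogenase (PDH), and Pfkfb3, which makes the activator of phosphofructokinase, were the 2 of 15 genes called in the list of PFKFB and PDH genes. Both were higher, beside 1.4% of all genes called higher. Pdk1 had 20.5, 12.2 and 15.1 CPM at 20% O2 and 67.6, 55.04 and 68.5 CPM at 1% O2 (log2 fold change 2.001 ± 0.18 SE, adjusted p = 0.000244), with no overlap and a wide gap. Pfkfb3 had 7.44, 5.75 and 5.85 CPM at 20% O2 and 28.8, 16.5 and 21.6 CPM at 1% O2 (log2 fold change 1.80 ± 0.29 SE, adjusted p = 0.0094), and its adjusted p without replicate 3 at 20% O2 was 0.0598. The other PDH kinases did not pass: the log2 fold changes of Pdk2, Pdk3 and Pdk4 were 0.08, 0.43 and 0.55 (adjusted p = 0.758, 0.0775 and 0.383). None of 7 pentose phosphate genes was called by edgeR, by the unadjusted rule or by DESeq2, and limma-voom called 1.

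Glycogen genes rose in 4 of 12, beside 1.4% of all genes called higher. Gbe1, the branching enzyme, had 37.6, 33.2 and 39.3 CPM at 20% O2 and 106, 84.5 and 67.99 CPM at 1% O2 (log2 fold change 1.23 ± 0.15 SE, adjusted p = 0.00187). Pygl, the liver-type phosphorylase that breaks glycogen down, had 11.5, 6.37 and 8.89 CPM at 20% O2 and 20.5, 20.1 and 30.6 CPM at 1% O2 (log2 fold change 1.42 ± 0.24 SE, adjusted p = 0.0124). Ppp1r3c, which targets a phosphatase to glycogen and favours its synthesis, had 3.93, 4.77 and 3.97 CPM at 20% O2 and 19.2, 10.3 and 13.2 CPM at 1% O2 (log2 fold change 1.73 ± 0.34 SE, adjusted p = 0.0243), and Pgm1, phosphoglucomutase, rose by 0.66 on the log2 scale. So genes of both making and breaking glycogen are among the 4, and in each the groups lie apart. Gbe1 passed without each library in turn. Pygl was lost without replicate 3 at 20% O2 (adjusted p = 0.0647), Ppp1r3c without replicates 1 or 3 at either oxygen level (0.052 to 0.106) and Pgm1 without any library but replicate 2 at 20% O2 (0.0542 to 0.115), so that the list held 2 to 5 calls.

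**Figure D3:**
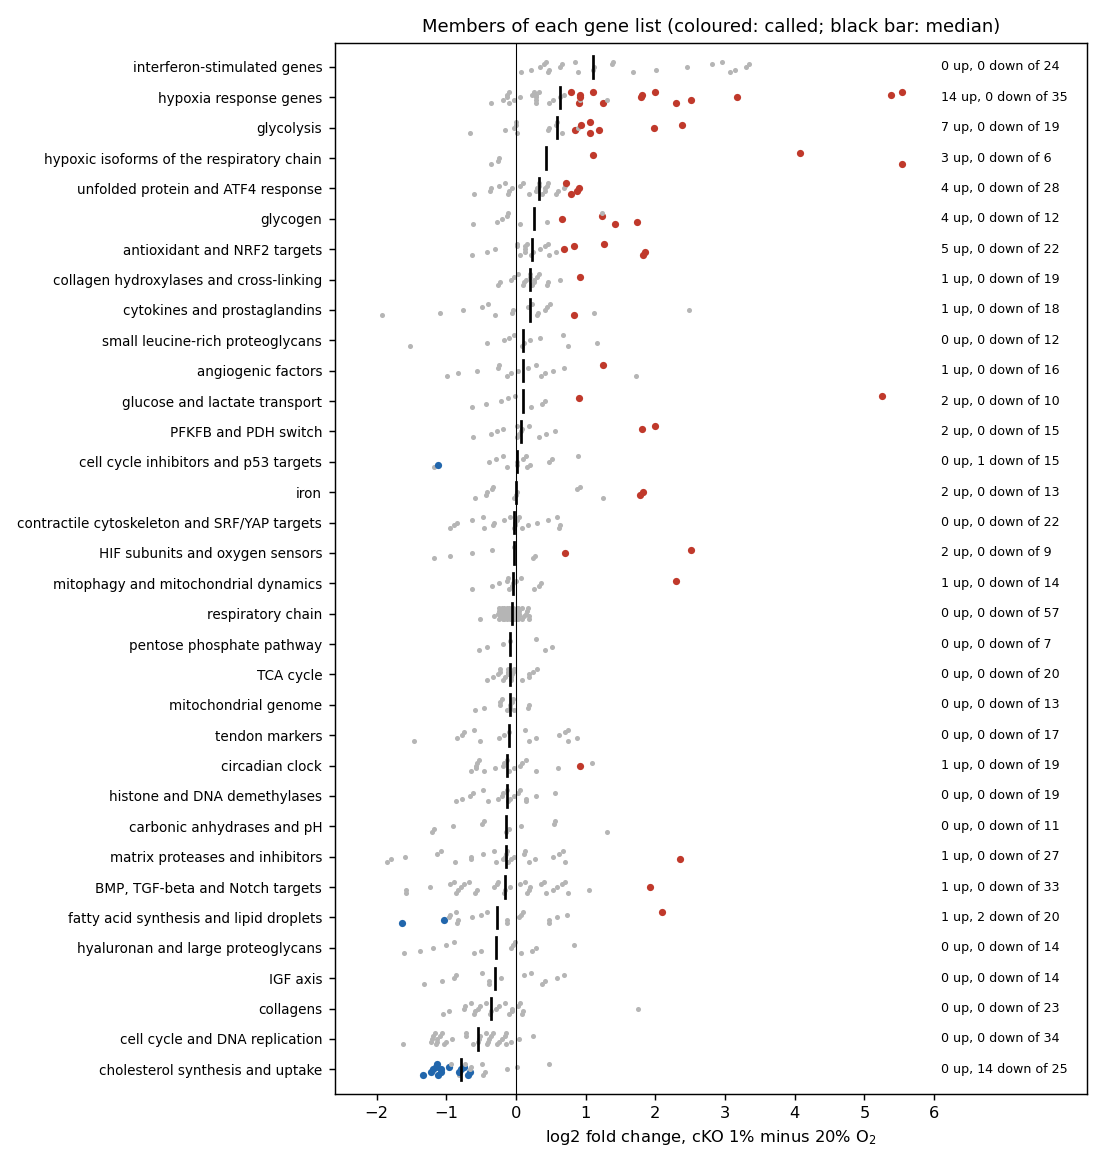
Log2 fold change at 1% against 20% O2 in the cKO libraries for every tested member of 34 gene lists, with called genes coloured, the list median as a bar and the counts called higher and lower at the side. The 14 called hypoxia genes and 7 called glycolysis genes lie above 0 and the 14 called cholesterol genes below it, while the 57 respiratory chain genes sit close to 0.

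Genes of heme breakdown and oxidant defence rose too. Hmox1, heme oxygenase, which releases iron from heme, stood at 276, 411 and 348 CPM at 20% O2 and 1361, 1204 and 1089 CPM at 1% O2 (log2 fold change 1.82 ± 0.20 SE, adjusted p = 0.000865). Nqo1, a quinone reductase and classic NRF2 target, had 174, 286 and 253 CPM at 20% O2 and 1086, 878 and 598 CPM at 1% O2 (log2 fold change 1.84 ± 0.23 SE, adjusted p = 0.00176). Gclm, a subunit of the enzyme that starts glutathione synthesis, had 136, 162 and 163 CPM at 20% O2 and 442, 366 and 300.1 CPM at 1% O2 (log2 fold change 1.27 ± 0.15 SE, adjusted p = 0.00121). In these 3 genes each hypoxic library exceeded each normoxic one, and the calls stood without each library in turn. Cat, catalase, and Srxn1, sulfiredoxin, rose by 0.84 and 0.69 on the log2 scale. That makes 5 of 22 genes of the antioxidant list, none of them lower, beside 1.4% of all genes called higher. Cat missed the threshold without replicate 2 at 1% O2 (adjusted p = 0.0663) and without replicates 1 or 3 at 20% O2 (0.0599 and 0.0734). Gclc (0.58, adjusted p = 0.102) and the cystine carrier Slc7a11 (0.06, adjusted p = 0.941), textbook members of the same programme, did not pass.

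Of 13 iron genes, Hmox1 and Slc40a1 were called, both higher, beside 1.4% of all genes called higher. Slc40a1, ferroportin, the iron exporter of the cell, was at 17.6, 15.8 and 21.1 CPM at 20% O2 and 56.6, 71.3 and 58.8 CPM at 1% O2 (log2 fold change 1.78 ± 0.31 SE, adjusted p = 0.0142), with the groups far apart, though its adjusted p was 0.0607 without replicate 2 at 1% O2 and 0.0601 and 0.054 without replicates 1 and 3 at 20% O2. The ferritin chains, which store iron, were high in level: Fth1 stood at 2938, 6712 and 3745 CPM at 20% O2 and 8192, 9765 and 7426 CPM at 1% O2 (adjusted p = 0.0739), its groups just apart. Ftl1 had a log2 fold change of 0.88 (adjusted p = 0.0552). The transferrin receptor Tfrc had -0.43 (adjusted p = 0.254). Genes of iron and heme handling outside the list, named after their values were seen, were Trf, transferrin (log2 fold change 1.47, adjusted p = 0.00187), Hfe (1.27, 0.000361) and the heme carrier Slc48a1 (1.13, 0.00187), all higher.

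Cholesterol synthesis was the list with the most genes that fell: 14 of 25 were called lower and none higher, beside 0.7% of all genes called lower, with a median log2 fold change of -0.79. Hmgcs1, the HMG-CoA synthase early in the pathway, had 461, 441 and 518 CPM at 20% O2 and 196, 234 and 226 CPM at 1% O2 (log2 fold change -1.12 ± 0.12 SE, adjusted p = 0.000627). Its highest hypoxic value lay well below the lowest normoxic one. Lss, lanosterol synthase, showed 93.2, 67.5 and 99.95 CPM at 20% O2 and 31.9, 38.3 and 41.1 CPM at 1% O2 (log2 fold change -1.22 ± 0.21 SE, adjusted p = 0.0109), its groups also apart. Among the others that fell were Srebf2, the transcription factor of the pathway, Insig1, Mvd, Idi1, Fdft1, Sqle, Hsd17b7, Dhcr7 and Stard4, with log2 fold changes from -1.14 to -0.66. Insig2, which holds that factor back, was higher, at 0.47 (adjusted p = 0.0471), short of 1.5-fold.

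The count of cholesterol genes called lower was 6 without replicate 1 at 1% O2, 6 without replicate 2 and 9 without replicate 3, and 10, 14 and 5 without replicates 1, 2 and 3 at 20% O2, while the median stayed between -0.705 and -0.871. Hmgcs1 was called in each of these fits. Lss and Mvd were not: without replicate 3 at 20% O2 their adjusted p were 0.0601 and 0.0565, and without replicate 1 at 1% O2 0.0569 and 0.0674. Lss (0.0545) was also lost without replicate 2 at 1% O2.

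Among 20 genes of fatty acid synthesis and lipid droplets, 2 fell and 1 rose. Fasn, fatty acid synthase, had 121, 38.1 and 66.9 CPM at 20% O2 and 16.6, 23.9 and 31.2 CPM at 1% O2 (log2 fold change -1.64 ± 0.38 SE, adjusted p = 0.0453), a group of widely spread normoxic values that still lie above the hypoxic ones. Fads2, a desaturase, had 483, 326 and 479 CPM at 20% O2 and 173, 195 and 261 CPM at 1% O2 (log2 fold change -1.03 ± 0.19 SE, adjusted p = 0.0199). Lpl, the lipase that frees fatty acids from lipoproteins, moved the other way, at 31.1, 40.1 and 21.2 CPM at 20% O2 and 159, 131 and 107 CPM at 1% O2 (log2 fold change 2.10 ± 0.34 SE, adjusted p = 0.00903), with every hypoxic value above the normoxic ones. Fasn passed only with all libraries or without replicate 2 at 20% O2 (adjusted p 0.0703 to 0.157 otherwise), Fads2 was lost without replicates 1 or 2 at 1% O2 or 1 or 3 at 20% O2 (0.0734 to 0.0962), and Lpl without replicate 3 at 20% O2 (0.052).

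Several genes outside these roles rose strongly in the cKO libraries. As3mt, arsenite methyltransferase, had 4.58, 5.31 and 5.80 CPM at 20% O2 and 37.5, 29.4 and 29.1 CPM at 1% O2 (log2 fold change 2.60 ± 0.16 SE, adjusted p = 5.61e-06), and Efcab1, an EF-hand calcium-binding gene, 1.57, 2.11 and 1.69 CPM at 20% O2 and 13.4, 13.4 and 11.2 CPM at 1% O2 (log2 fold change 2.81 ± 0.19 SE, adjusted p = 1.48e-05). Mdk, the growth factor midkine, had 4.22, 3.74 and 2.92 CPM at 20% O2 and 29.3, 20.6 and 18.3 CPM at 1% O2 (log2 fold change 2.64 ± 0.34 SE, adjusted p = 0.00226). These 3 are tight within groups and stood without each library in turn. Cyp1a1, the cytochrome P450 induced by the aryl hydrocarbon receptor, which also pairs with ARNT, had 1.61, 1.01 and 2.79 CPM at 20% O2 and 23.1, 19.3 and 12.1 CPM at 1% O2 (log2 fold change 3.31 ± 0.59 SE, adjusted p = 0.0147). Its groups are wide apart, but the adjusted p was 0.0502 without replicate 2 at 1% O2 and 0.0672 without replicate 1 at 20% O2. Fgf10, a mesenchymal growth factor, had 1.82, 0.928 and 2.26 CPM at 20% O2 and 30.3, 4.45 and 7.64 CPM at 1% O2, Ces1f, a carboxylesterase, 0.107, 0.413 and 0.114 CPM at 20% O2 and 11.7, 2.36 and 0.758 CPM at 1% O2, and Gsta3, a glutathione transferase, 0.823, 1.39 and 1.23 CPM at 20% O2 and 14.8, 4.97 and 2.30 CPM at 1% O2. In each of these 3 the shallow replicate 1 at 1% O2 was by far the highest. Without it the log2 fold change of Fgf10 went from 3.01 to 1.87 (adjusted p = 0.0774), of Gsta3 from 2.59 to 1.66 (0.0689) and of Ces1f from 4.36 to 2.85, and without replicate 2 at 20% O2 that of Ces1f was 5.28. All 3 were lost without replicates 1 or 3 at 20% O2 (0.101 to 0.122), and Gsta3 without replicate 2 at 1% O2 (0.0638).

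Genes that fell are named from those called with a mean of at least 1 CPM at 20% O2, predicted genes and pseudogenes left out. The 12 of these with the lowest log2 fold change include surface and cytoskeletal proteins. Pi16, a peptidase inhibitor that marks a class of resting fibroblasts, stood at 199, 150.1 and 175 CPM at 20% O2 and 16.3, 47.6 and 53.8 CPM at 1% O2 (log2 fold change -2.13 ± 0.34 SE, adjusted p = 0.00792). Pde9a, a cyclic GMP phosphodiesterase, had 35.4, 27.7 and 33.4 CPM at 20% O2 and 6.63, 7.41 and 11.9 CPM at 1% O2 (log2 fold change -1.87 ± 0.26 SE, adjusted p = 0.00297). Both passed without each library in turn, and their hypoxic values lie far under the normoxic ones. Hs3st1, a heparan sulfate sulfotransferase at chr5:39613935-39755475, had 6.12, 3.30 and 4.52 CPM at 20% O2 and 0.432, 0.640 and 0.784 CPM at 1% O2 (log2 fold change -2.81 ± 0.45 SE, adjusted p = 0.00796), at 0.0517 without replicate 2 at 1% O2. The value of 0.432 CPM is at the floor of the shallow library, 0.437 CPM. Fzd6, a Wnt receptor, had 8.51, 5.78 and 8.09 CPM at 20% O2 and 1.15, 3.02 and 1.87 CPM at 1% O2 (log2 fold change -1.81 ± 0.31 SE, adjusted p = 0.0114). It was lost without replicate 3 at either level (0.0561 and 0.0565). Itga6, the laminin-binding integrin alpha 6, had 41.7, 19.002 and 32.001 CPM at 20% O2 and 2.88, 6.22 and 6.35 CPM at 1% O2, and Piezo2, a stretch-gated channel, 7.51, 3.15 and 4.43 CPM at 20% O2 and 1.01, 0.989 and 0.910 CPM at 1% O2. Gas7, a cytoskeletal adaptor, had 23.9, 21.99 and 23.9 CPM at 20% O2 and 6.05, 8.58 and 6.93 CPM at 1% O2. The groups of these 3 do not overlap (log2 fold change -2.52, -2.38 and -1.68, adjusted p = 0.0222, 0.0197 and 0.0202), but each passed only with all libraries or without replicate 2 at 20% O2 (0.0574 to 0.0884 otherwise). Tmem100, a membrane protein, Kif24, a kinesin, Cubn, the endocytic receptor cubilin, Acsbg1, an acyl-CoA synthetase, and Fmnl1, a formin, complete the 12, at 0.67 to 2.76 CPM at 20% O2 and 0 to 0.552 CPM at 1% O2, where the shallow replicate 1 listed Acsbg1 and Fmnl1 at 0. All 5 were lost without replicate 2 at 1% O2 (0.0661 to 0.15) and without replicate 3 at 20% O2 (0.0672 to 0.148). Kif24, Cubn and Fmnl1 passed only with all libraries or without replicate 2 at 20% O2 (0.0629 to 0.15 otherwise), Tmem100 was also lost without replicate 3 at 1% O2 (0.0772) and Acsbg1 without replicate 1 at 20% O2 (0.0734), and the log2 fold change of Acsbg1 went from -2.52 to -3.18 without replicate 3 at 1% O2.

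Tendon identity and matrix genes gave few calls. Scx was at 9.37, 21.7 and 16.2 CPM at 20% O2 and 7.49, 17.7 and 17.9 CPM at 1% O2 (log2 fold change -0.11, adjusted p = 0.91), with overlapping groups. None of 17 tendon marker genes was called by edgeR or DESeq2, 3 passed the unadjusted rule and limma-voom called 6. Ccn3, a matricellular protein, was at 415, 523 and 269 CPM at 20% O2 and 202, 289.5 and 176 CPM at 1% O2 (adjusted p = 0.196), where the highest hypoxic library, replicate 2, lay above the lowest normoxic one. Fits that pair libraries by replicate number, described below, called Ccn3 lower, though whether a number marks the same mouse is not stated. None of 23 collagen genes was called by edgeR or by DESeq2, 3 passed the unadjusted rule and limma-voom called 8. For both lists, the unadjusted rule passed 11.6% of all 15850 genes and limma-voom called 2718 of them. Col1a1, the main tendon collagen, ranged from 1454 to 3803 CPM at 20% O2 and from 843 to 2956 CPM at 1% O2. The collagen median of -0.36 rested on some libraries, being -0.085 without replicate 1 at 20% O2 and -0.62 without replicate 3 at 1% O2. Without replicate 2 at 20% O2, 2 collagen genes were called lower.

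Of 12 small leucine-rich proteoglycans, which set collagen fibril width, none was called by edgeR, 3 passed the unadjusted rule, DESeq2 called 1 and limma-voom 2. Aspn, asporin, came nearest at 242, 597 and 433 CPM at 20% O2 and 749, 992 and 1107 CPM at 1% O2 (log2 fold change 1.16 ± 0.28 SE, adjusted p = 0.0503), every hypoxic value being above every normoxic one, and without replicate 2 at 20% O2 its adjusted p was 0.01. P4ha1, a prolyl hydroxylase of collagen, was the exception among 19 genes that hydroxylate or cross-link collagen, at 262, 259 and 279 CPM at 20% O2 and 516, 506 and 489 CPM at 1% O2 (log2 fold change 0.92 ± 0.11 SE, adjusted p = 0.00134), with tight groups in every fit. Its relatives P4ha2 and P4ha3 had log2 fold changes of 0.63 and 0.23 (adjusted p = 0.0578 and 0.663), and Plod1, Plod2 and Plod3, which hydroxylate lysine, 0.45, 0.45 and 0.26 (0.2, 0.198 and 0.348). Without replicate 1 at 1% O2, P4ha2 (0.79, adjusted p = 0.0338) and Plod1 (0.67, 0.0384) were called. Among 27 matrix proteases and inhibitors Timp4 was called, at 0.179, 0.309 and 0.137 CPM at 20% O2 and 1.3, 1.42 and 0.607 CPM at 1% O2 (log2 fold change 2.36 ± 0.54 SE, adjusted p = 0.0453), a level near the floor of the shallow library. That call was lost without replicates 1 or 2 at 1% O2 and 1 or 3 at 20% O2 (0.0956 to 0.169). At 3.7% of its list it is near the 2.1% called over all genes.

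In the stress and growth lists the calls were few and uneven. Of 28 genes of the unfolded protein and ATF4 response 4 rose, beside 1.4% of all genes called higher. They were Herpud1, of the degradation machinery of the endoplasmic reticulum, at 117, 156 and 154 CPM at 20% O2 and 209, 282 and 305 CPM at 1% O2 (log2 fold change 0.90 ± 0.17 SE, adjusted p = 0.0181), the chaperones Hsp90b1 (0.79) and Calr (0.72), and Chac1, which degrades glutathione (0.87). Hspa5, the master chaperone BiP, was at 1298, 1558 and 1712 CPM at 20% O2 and 1973, 2719 and 2728 CPM at 1% O2 (adjusted p = 0.0638), with no overlap. The list's count was 0 without replicates 2 or 3 at 1% O2 or replicate 1 at 20% O2, 1 without replicate 3 at 20% O2, and 9 without replicate 2 there. The single call among 33 BMP, TGF-beta and Notch genes (3.0%, near the 2.1% of all genes) was Atoh8. Atoh8, a transcription factor downstream of BMP receptors, at chr6:72206177-72235577, stood at 6.76, 9.57 and 4.13 CPM at 20% O2 and 22.5, 30.7 and 24.2 CPM at 1% O2 (log2 fold change 1.93 ± 0.34 SE, adjusted p = 0.0149). Its hypoxic values all lie above the normoxic ones, and its adjusted p was 0.0638, 0.0601 and 0.0647 without replicate 2 at 1% O2 and replicates 1 and 3 at 20% O2. Nfil3, a repressor tied to the circadian clock, and Ptges, a prostaglandin E synthase, rose by 0.91 and 0.83, and Pmaip1, the p53 target Noxa, fell by 1.12 on the log2 scale. Each of these 3 was lost in 4 or 5 of the 6 leave-one-out fits (0.0573 to 0.145), including those without replicates 2 or 3 at 1% O2 and without replicate 1 at 20% O2.

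Interferon-stimulated genes were high in a single library. All 24 had a positive log2 fold change, with a median of 1.11, yet none was called by edgeR, 4 passed the unadjusted rule, DESeq2 called 1 and limma-voom 8. Over all 15850 genes the unadjusted rule passed 1845, DESeq2 called 892 and limma-voom 2718. Isg15, a ubiquitin-like antiviral protein, was at 1.04, 1.13 and 0.708 CPM at 20% O2 and 1.44, 22.2 and 0.860 CPM at 1% O2. Replicate 2 at 1% O2 held the highest value for 21 of the 24 genes, and without it the median was 0.147 and 13 of 24 were positive. The limma-voom count gave that library a weight of 2.94, the largest at 1% O2.

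Cell cycle genes leaned lower: 32 of 34 had a negative log2 fold change, with a median of -0.54, beside 8413 of all 15850 genes below 0. None was called by edgeR, 13 passed the unadjusted rule, DESeq2 called 8 and limma-voom 19. Over all 15850 genes these 3 looser counts were 1845, 892 and 2718. Top2a, the topoisomerase of dividing cells, was at 38.98, 22.5 and 39.9 CPM at 20% O2 and 10.5, 17.2 and 17.2 CPM at 1% O2 (adjusted p = 0.142), and Cdc20, an activator of mitotic exit, at 41.4, 43.3 and 53.7 CPM at 20% O2 and 17.2, 22.4 and 19.3 CPM at 1% O2 (adjusted p = 0.0831). In both genes all hypoxic libraries were below all normoxic ones. Replicate 3 at 20% O2 had the highest level of 26 of the 34, and the median without it was -0.485. The limma-voom count gave that library the largest weight of all, 4.10. The low level at 1% O2 was even, with library medians of -0.28, -0.26 and -0.30 against 0.22, 0.089 and 0.56 at 20% O2, each being the median over the list of log2(CPM + 0.5) minus the gene's mean.

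**Figure D4:**
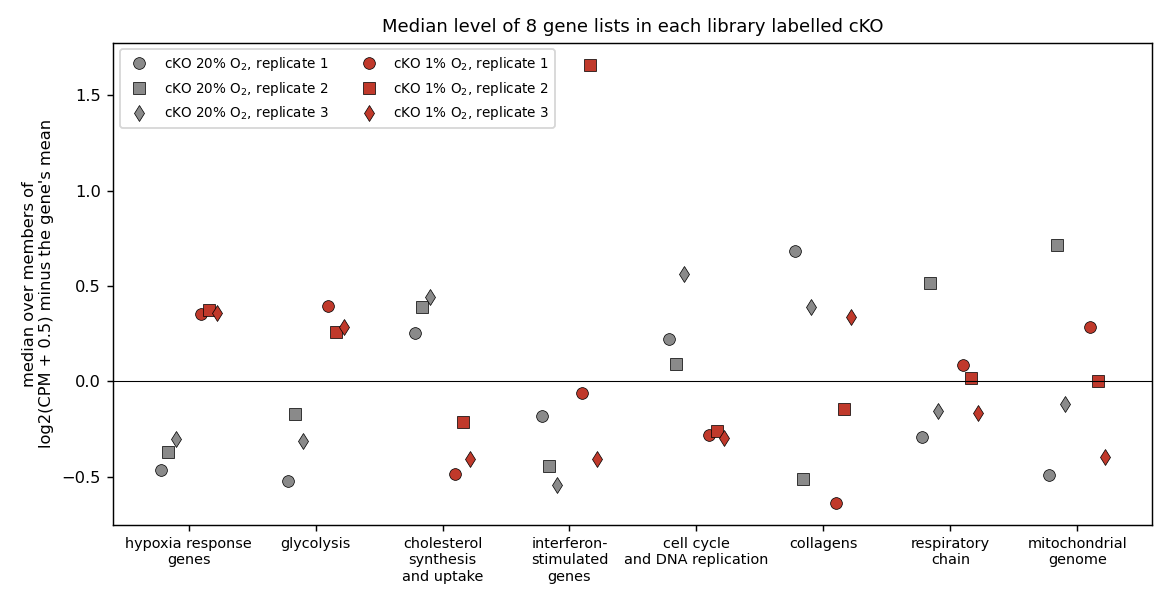
Median over the members of 8 gene lists of log2(CPM + 0.5) minus each gene's mean over the 6 cKO libraries (y axis), 1 point per library at 20% and 1% O2. The hypoxia list lies between -0.47 and -0.30 at 20% O2 and between 0.35 and 0.38 at 1% O2, whereas the interferon list is raised in 1 hypoxic library alone, at 1.66.

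Among the remaining lists, single calls came from mitophagy (Bnip3, of 14) and angiogenic factors (Adm, of 16). None was called among 11 carbonic anhydrase and pH genes, 19 histone and DNA demethylases, 14 hyaluronan and large proteoglycan genes, 22 contractile cytoskeleton genes and 14 genes of the IGF axis. By the unadjusted rule these lists held 3, 2, 4, 4 and 2 genes, DESeq2 called 1, 0, 1, 3 and 0, and limma-voom called 4, 2, 5, 5 and 6. Beside them stand 1845, 892 and 2718 of all 15850 genes. Slc4a7, a bicarbonate carrier, had 31.7, 16.1 and 24.2 CPM at 20% O2 and 13.7, 13.6 and 11.5 CPM at 1% O2 (adjusted p = 0.0578), and passed without replicate 2 at 20% O2 (log2 fold change -1.11, adjusted p = 0.00695).

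Beside the Ctrl libraries, which share no library with this comparison but share the estimate of spread, nearly all genes called in cKO moved in the same direction. In Ctrl, 298 genes (1.88%) were called between oxygen levels, 233 higher (1.47%) and 65 lower (0.41%). The order of the 2 totals depends on the shared spread. With each genotype fitted on its own libraries alone, 84 genes were called in cKO and 366 in Ctrl. Of the 333 genes called in cKO, 329 had the same sign in Ctrl and 163 were called there too, which is 48.9% of the cKO calls and 54.7% of the Ctrl calls. The share with the same sign over all genes tested was not counted. For the 222 genes that rose in cKO the median size of the log2 fold change was 1.12 in cKO and 1.10 in Ctrl, and 134 were called in both. For the 111 that fell it was 1.03 and 0.616, and 29 were called in both. Genes picked for passing in cKO are expected to show the larger value there, as Ctrl calls do in Ctrl (1.21 against 0.933 in cKO), so these medians are a description.

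**Figure D5:**
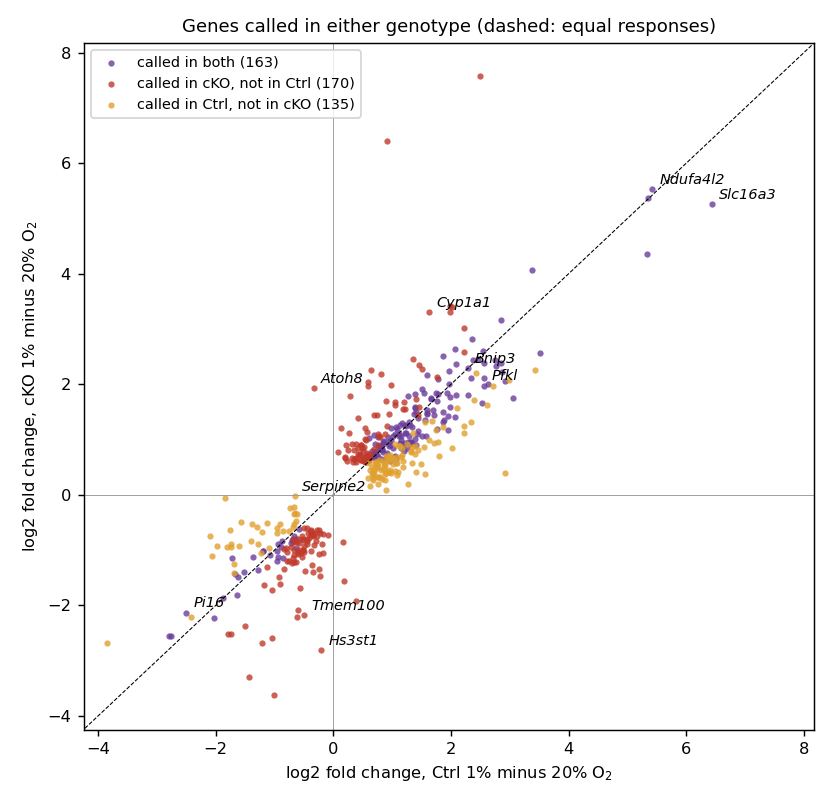
Log2 fold change at 1% against 20% O2 in Ctrl (x axis) and in cKO libraries (y axis) for genes called in either genotype, with the dashed line marking equal values. The 163 genes called in both, 170 in cKO alone and 135 in Ctrl alone lie mostly on 1 side of 0 on both axes, with Slc16a3 below the line.

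The test of the difference between genotypes, an interaction of genotype and oxygen in edgeR, called no gene of 15850, and the lowest adjusted p was 0.99991. At an unadjusted p of 0.05 with a 1.5-fold difference it passed 292 (1.84%), 137 with the higher value in cKO (0.864%) and 155 with the lower (0.978%), and DESeq2 called 2, Atoh8 (difference 2.29, adjusted p = 0.0142) and Serpine2 (0.66, 0.00151), while limma-voom called none. So no gene is shown by edgeR to answer oxygen differently in the cKO libraries, and the intervals say how large a difference the data still allow. For Ndufa4l2 the log2 fold change was 5.53 in cKO and 5.42 in Ctrl (difference in log2 fold change 0.11, 95% interval -0.72 to 0.94, unadjusted p = 0.778). For Bnip3 it was 2.29 and 2.28 (difference in log2 fold change 0.01, 95% interval -0.60 to 0.62, unadjusted p = 0.966), and for Hmox1 1.82 and 1.78 (difference in log2 fold change 0.04, 95% interval -0.56 to 0.64, unadjusted p = 0.884). In these 3 genes the interval stays within 1 log2 unit of 0. For Mgarp, which has few reads at 20% O2, it is far wider (difference in log2 fold change 0.02, 95% interval -1.67 to 1.71, unadjusted p = 0.978).

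Some genes had an interval that left 0 before adjustment, and none of them passed after it in edgeR. Slc16a3 reached 183, 154 and 136 CPM in hypoxic Ctrl libraries, above all 3 hypoxic cKO libraries (difference in log2 fold change -1.19, 95% interval -1.93 to -0.44, unadjusted p = 0.00445). Pfkl reached 340, 282 and 279 CPM there, again above the cKO values (difference in log2 fold change -0.58, 95% interval -0.95 to -0.22, unadjusted p = 0.00444). Pdk1 (difference in log2 fold change -0.64, 95% interval -1.17 to -0.11, unadjusted p = 0.0227) and P4ha1 (difference in log2 fold change -0.39, 95% interval -0.72 to -0.06, unadjusted p = 0.0244) also had the smaller fold change in cKO. Of the 19 glycolysis genes, 16 had a smaller log2 fold change in cKO than in Ctrl, beside 8958 of all 15850 genes. The medians were 0.58 and 1.06 and the median difference was -0.34, where the median difference over all genes was -0.042. In Ctrl 12 of the 19 were called and in cKO 7. The cKO count depended on single libraries: it was 3 without replicate 3 at 20% O2. Without replicate 2 at 20% O2 it was 14 (13 higher and 1 lower), more than in Ctrl. The cKO median was 0.50 to 0.72 when 1 cKO library was left out. The hypoxia response list did not lean this way. Of its 35 genes, 18 had a smaller log2 fold change in cKO than in Ctrl. Its medians were 0.63 in cKO and 0.59 in Ctrl, with a median difference of -0.011, and 14 and 16 genes were called.

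Atoh8 and Hs3st1 had the cKO fold changes furthest from those of Ctrl among the called genes named here. Atoh8 stood at 103, 59.7 and 81.6 CPM at 20% O2 and 37.5, 76.1 and 80.5 CPM at 1% O2 in Ctrl, so that the cKO libraries were far below Ctrl at 20% O2 and closer at 1% O2 (difference in log2 fold change 2.26, 95% interval 1.24 to 3.28, unadjusted p = 0.00041). Hs3st1 stood at 1.16, 2.15 and 1.04 CPM at 20% O2 and 1.99, 0.847 and 0.943 CPM at 1% O2 in Ctrl, so that the cKO libraries were the higher at 20% O2 alone (difference in log2 fold change -2.61, 95% interval -3.91 to -1.30, unadjusted p = 0.00091). Its levels are low, and in the shallow cKO replicate 1 at 1% O2 it was at the floor. Serpine2, a protease inhibitor, was level between oxygen levels in cKO at 429, 475 and 476 CPM at 20% O2 and 441, 478 and 437 CPM at 1% O2 and stood at 417, 390.2 and 377 CPM at 20% O2 and 241, 266 and 244 CPM at 1% O2 in Ctrl (difference in log2 fold change 0.63, 95% interval 0.32 to 0.94, unadjusted p = 0.000811). Over all 15850 genes, 8958 had the lower log2 fold change in cKO. For the 25 cholesterol genes 24 did, with medians of -0.79 and -0.39, and 5 were called in Ctrl. For the 34 cell cycle genes 33 did, with medians of -0.54 and 0.0034. The interferon list pointed opposite ways, at 1.11 and -1.19, with the cKO value resting on replicate 2 at 1% O2. The lowest unadjusted interaction p in these 3 lists were 0.0203, 0.0326 and 0.0091.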

How the data were processed

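TFs labelled cKO (3 libraries at 1% O2 and 3 at 20% O2) and Ctrl (3 and 3) were analysed from the table of expected counts per gene that the authors deposited. Per the labels and methods, poly-A libraries were sequenced as pairs, trimmed with cutadapt, aligned to GRCm38 with STAR and counted with RSEM 1.3.3, which shares out reads that fit several genes, so that near-identical copies are uncertain. The deposited values were whole numbers and were used as they stood. Genes were kept by filterByExpr (15850 of 55491 rows, of which 4 are transgenes), scaled by TMM and tested with edgeR 4.0.16 (R 4.3.3), quasi-likelihood F test, with 1 coefficient per group over 12 libraries. Called genes changed by 1.5-fold or more and had p below 0.05 after Benjamini-Hochberg adjustment over all genes tested. The SE was taken from the F statistic. DESeq2 1.42.0 and limma 3.58.1 (voom) were alternatives. The study used DESeq2 with a pairing factor that it does not name. Scripts were tested on simulated data.

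Totals ran from 6857558 to 42964226 counts in the cKO libraries, and floors of 3 counts cover counting error only. Positions come from GENCODE vM21, and promoters from RefSeq. All libraries were distinct. Genes named are Hif1a, Scx, Hilpda and Ccn3, the 12 called genes with the highest and the 12 with the lowest log2 fold change among those with at least 1 CPM in the higher group, up to 4 called members of each gene list (or the member with the lowest p), isoform pairs, and the 5 genes with the lowest interaction p. The members, lists and named genes were chosen with earlier results of these data known. Other genes named are said to be so, or belong to a list. Values of some genes that this rule names are not reported here.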

Additional observations from a re-analysis of the deposited data

Results flagged for a closer look

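Counts on 2 transgene sequences, which enter no comparison above, appeared in the cKO libraries and in no Ctrl library. Cre was counted 15 times over the 6 cKO libraries, at 1, 5 and 4 counts in replicates 1 to 3 at 20% O2 and 0, 2 and 3 counts at 1% O2. eGFP was counted 14 times, at 2, 5 and 1 counts at 20% O2 and 0, 1 and 5 counts at 1% O2. The library without either is the shallowest, replicate 1 at 1% O2, where 0 counts allow up to 0.437 CPM. Both sequences were at 0 in all 6 Ctrl libraries, and mCherry and tdTomato were at 0 in all 12. What carries the eGFP sequence was not analysed here. No group has more than 3 libraries, so single libraries were not tested for distance from the rest of their group.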

How the results depend on the processing

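The counts of calls depended on the test and on single libraries more than on scaling, and every one of the 333 genes kept its sign wherever it was tested. RLE size factors gave 343 cKO calls, a CPM filter 337, thinning 283 and the edgeR fit with a replicate block 444 (286 higher, 158 lower). DESeq2 called 892 (481 higher, 411 lower), 696 in Ctrl and 2 in the interaction, and with the replicate block 1076 (560 and 516), 962 and 5. No filter gave 511, with 212 lower, and all 18 libraries gave 487, with 173 lower. The 6 cKO libraries alone gave 84 (67 higher, 17 lower), and the Ctrl libraries alone gave 366 in Ctrl. In that cKO fit 2 glycolysis genes, 3 cholesterol genes and 0 genes of the unfolded protein and ATF4 list were called. An unadjusted p gave 1845 (824 and 1021), 1497 in Ctrl and 292 in the interaction. A pair of alternatives was chosen after seeing the data: limma-voom with library weights called 2718 (1147 and 1571) and 1543 in Ctrl, giving replicate 2 at 20% O2 a weight of 0.151, and leaving out both cKO libraries numbered 1 gave 69 (61 and 8) and 1 in the interaction. The largest weights among cKO libraries were 4.10 for replicate 3 at 20% O2 and 2.94 for replicate 2 at 1% O2. Leaving out 1 library gave 98 to 1373 cKO calls, 80 to 573 higher and 18 to 800 lower. In Ctrl this gave 116 to 261 calls and in the interaction 0 or 1, the 1 being Gm8226 without replicate 1 at 20% O2. Of the 333 calls 42 were made in all 17 alternatives for single genes, 41 higher and 1 lower, the last being Hmgcs1. The cause of these moves was not tested.

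Log2 fold changes that turned sign all belong to genes that were not called. With library weights Scx was 0.14, mt-Nd5 0.028, Ndufa4 0.092, Egln2 0.071 and Slc2a3 -0.12. Egln2 was 0.0033 after thinning, and Egln2 and Hk1 were 0.18 and 0.067 without both libraries numbered 1. Leaving out 1 library gave ranges of Scx -0.37 to 0.21, mt-Nd5 -0.77 to 0.16, Ndufa4 -0.46 to 0.20, Cox4i1 -0.45 to 0.064, Ldhb -0.12 to 0.086, Egln2 -0.15 to 0.17, P4ha3 -0.021 to 0.49 and Serpine2 -0.073 to 0.012.

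Replicate numbers are shared by the groups, and whether a number marks 1 mouse is not stated. In the residuals of the cKO libraries same-numbered pairs correlated at 0.015, 0.18 and 0.52. Their mean was 0.24, against -0.11 for pairs of different numbers. Replicate 1 at 1% O2 correlated best with replicate 2 at 20% O2 (0.16). The correlations were thus uneven, and the pairing was not taken as given. Of the 333 calls, 275 were also made by edgeR with the replicate block. Ccn3, not called without it, was called lower with it in both edgeR and DESeq2 (lower of the 2 adjusted p = 1.53e-06, in DESeq2). Depth limits genes under about 0.437 CPM in the shallowest library.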

Other observations

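Of the 42 genes called under all 17 alternatives, several belong to no list used above, and they were picked here after their values were seen. Nr1h3, the oxysterol receptor LXR alpha, stood at 1.11, 1.01 and 0.937 CPM at 20% O2 and 4.47, 5.73 and 6.32 CPM at 1% O2 (edgeR log2 fold change 2.45, adjusted p = 0.000301). Gpr35, an orphan G protein-coupled receptor, stood at 2.79, 4.82 and 4.27 CPM at 20% O2 and 18.9, 22.1 and 23.5 CPM at 1% O2 (2.44, 0.000627), and Ak4, a mitochondrial adenylate kinase, at 10.7, 5.85 and 10.8 CPM at 20% O2 and 56.8, 39.8 and 41.3 CPM at 1% O2 (2.32, 0.000627). Vcam1, a cell adhesion molecule, stood at 539, 592 and 529 CPM at 20% O2 and 1144, 1185 and 1064 CPM at 1% O2 (1.03, 0.00233). In all 4 genes every hypoxic library lay above every normoxic one. Maob, which oxidises amines in mitochondria (1.53, 0.00176), H2-Ab1, an MHC class II chain (1.84, 0.00256), Selenbp1, a selenium-binding protein (2.12, 0.00142), Fut11, a fucosyltransferase (0.91, 0.00187), and the heat shock protein Hsph1 (0.90, 0.00256) were also higher. All 9 were higher in the hypoxic Ctrl libraries too, with log2 fold changes from 0.61 for Vcam1 to 2.77 for Ak4.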
